A study of Mus musculus with 9 samples.

Results

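Trimethylated H3K4 and trimethylated H3K27 lie together on the bivalent promoters of embryonic stem cells (ESCs), and the transcripts of 10 genes that encode subunits of the complexes behind these marks are described here. They are Ezh2, Ezh1, Eed, Suz12, Jarid2, Mtf2 and Aebp2 of the Polycomb repressive complex PRC2, and Kmt2a, Kmt2b and Men1 of the MLL complexes. A gene was taken where its name was found in the table of deposited log2 expression values, which holds 25965 genes. Of the 10 genes, 8 were listed under these names and 2 under older symbols, Kmt2a as Mll1 and Kmt2b as Wbp7, both matched by symbol and position. All 10 passed the filter on low values that left 14601 genes for testing.

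RNA-seq of polyadenylated RNA was performed in E14 mouse ESCs, an established line grown in serum and LIF. Cells received control siRNA, Dppa2 siRNA or Dppa4 siRNA at 0 h and again at 48 h and were collected at 96 h (4 d). The study describes these knockdowns in a reporter line, so all groups share transgenes in which the MERVL promoter drives tdTomato and the Zscan4c promoter drives eGFP. Each treatment has 3 libraries, called A, B and C, and the titles of all 9 libraries give the same replicate number before this letter. All 9 libraries carry a transfection, so the control siRNA libraries measure transfected cells, and siRNA lowers a transcript without removing the gene. Nothing in the sample labels says that the 3 libraries of a treatment came from separate cultures, although the study calls its replicates of these cells biological, so p-values measure the spread between these libraries, which may be technical in part. The comparisons ask whether transcripts for bivalent chromatin differ once Dppa2 or Dppa4, a pair of small DNA-binding proteins of pluripotent cells, is depleted.

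PRC2 methylates H3K27 through its catalytic subunit Ezh2 or the related Ezh1, and needs Eed and Suz12 for activity. Accessory subunits such as Jarid2, Mtf2 and Aebp2 join this core in alternative assemblies and guide it to CpG-rich DNA. The MLL proteins Kmt2a and Kmt2b methylate H3K4, are held on chromatin in part through menin (Men1), and in ESCs Kmt2b is known for its activity at bivalent promoters of silent developmental genes.

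Estimated depth on genes was 24.3, 39.7 and 20.7 M reads in control libraries A, B and C. It was 26.7, 19.9 and 16.8 M reads in the Dppa2 siRNA libraries and 29.0, 30.4 and 21.2 M reads in the Dppa4 siRNA libraries. These totals are approximate, because the same estimate made from genes of few reads ranged from 13.9 to 40.9 M reads. The members were well covered, from an estimated 553 reads for Ezh1 in control C to 20003 reads for Jarid2 in control B. The counting error at a member's lowest count was 0.02 to 0.06 on the log2 scale, and such errors cover counting only.

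Libraries within a treatment differed along transcript length. Across 13081 genes with a known length, the deviation of a gene from the mean of its treatment was correlated with log2 transcript length at r = 0.50 in control A, 0.42 in Dppa2 siRNA B and 0.32 in Dppa4 siRNA C. In the other libraries r was -0.06 (control B), -0.41 (control C), -0.34 (Dppa2 siRNA A), -0.25 (Dppa2 siRNA C), -0.30 (Dppa4 siRNA A) and -0.04 (Dppa4 siRNA B). Control C and Dppa4 siRNA A thus lay about as far to the short side as Dppa2 siRNA B and Dppa4 siRNA C to the long side, and deviations within a treatment sum to 0. These correlations run across genes within a library, and genes are not independent replicates. The first principal component of these deviations held 58.3% of the variance within treatments. Member values are therefore given for every library, and the changes are given with and without control A, Dppa2 siRNA B and Dppa4 siRNA C, the library of each treatment with the highest r.

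The targeted genes followed their labels. Dppa2 had log2 values of 7.26, 7.16 and 6.94 in control libraries A, B and C, 3.36, 3.86 and 3.68 in the Dppa2 siRNA libraries, and 7.01, 7.17 and 7.03 in the Dppa4 siRNA libraries. Only the Dppa2 siRNA libraries were low, and Dppa2 fell by 3.49 (SE 0.14, adjusted p = 2.13e-05, limma) in them. Dppa4 had log2 values of 7.02, 7.11 and 7.06 with control siRNA, 7.11, 7.07 and 7.17 with Dppa2 siRNA, and 6.16, 6.14 and 6.09 with Dppa4 siRNA. The Dppa4 siRNA libraries lay below the other 6, and Dppa4 fell by 0.93 (SE 0.08, adjusted p = 0.000281, limma) against control, so close to 0.52 of its transcript was left. These values are RNA, and the study reports a stronger Dppa4 knockdown by qRT-PCR and by Western blot. It also reports that Dppa4 siRNA lowered Dppa2 protein while Dppa2 mRNA stayed the same. Dppa2 siRNA lowered Dppa4 protein to a lesser degree there, so the knockdowns are not separate depletions of 1 protein each. The label of ESCs was checked with 9 marker genes, whose summed level was 12.00, 12.09 and 11.84 (log2) in control A, B and C, 12.08, 12.11 and 12.07 with Dppa2 siRNA and 12.02, 12.07 and 12.07 with Dppa4 siRNA. Pou5f1 was the most abundant of them in every library, and none was at the lowest value of a library. limma called 0 of the 9 in either knockdown, where 0 and 1 passed an unadjusted p of 0.05 and the intensity difference filter called 0. Of all genes tested limma called 3.44% in each knockdown. An unadjusted p of 0.05 was passed by 15.7% and 18% of them, and the filter called 4.73% and 4.65%. The median change of these markers was 0.11 with Dppa2 siRNA and 0.10 for Dppa4 siRNA, but -0.0902 and -0.0974 without control C, with the largest mean differences for Utf1 (0.27 and 0.38, adjusted p = 0.44 and 0.21, limma) and Nanog (-0.22 and -0.28, adjusted p = 0.714 and 0.526, limma). With 1 library left out, Utf1 ran from 0.172 to 0.386 and from 0.279 to 0.493. Nanog then ran from -0.466 to -0.0906 and from -0.519 to -0.144, and limma called 0 to 1 markers with Dppa4 siRNA. Over 21 alternatives Nanog passed the threshold in 1 and 2, and Utf1 in 1 and 1.

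None of the 10 members passed the threshold of limma (adjusted p of 0.05 over the 14601 genes) in any of the 3 comparisons. With Dppa2 siRNA against control siRNA, 0 of 10 members were called, against 3.44% of all genes tested (502 genes). Of all genes tested 2.27% were called lower and 1.16% higher, and 0 members fell in either direction. At an unadjusted p of 0.05, 0 members passed in limma against 15.7% of all genes, and the intensity difference filter called 0 members against 4.73%. limma and the filter together called 0 members against 1.91% of all genes. The control and Dppa2 siRNA libraries did not overlap for 1 member, Ezh2, against 17.8% of all genes. The 502 genes became 315 without control A, 314 without control B, 255 without Dppa2 siRNA A, 232 without Dppa2 siRNA C and 300 without Dppa4 siRNA B, with 0 members in each. Of the genes called, 66.1% were lower, and this share depended on the fit, at 46.7% with estimated library weights, 53.6% after a correction of each library for transcript length and GC content, 86.1% with the replicate letter as a block and 90.4% with only the 6 libraries compared. Without the filter on low values it was 9.79% of 9140 genes, 7462 of which were at the lowest value of every library.

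With Dppa4 siRNA against control siRNA, limma again called 0 of 10 members, against 3.44% of all genes tested (502 genes). The share of all genes called lower was 2.34% and the share called higher was 1.1%, with 0 members in each. Ezh2 and Men1 were the 2 members past an unadjusted p of 0.05 in limma, which 18% of all genes passed. Mtf2 was the 1 member called by the intensity difference filter, which called 4.65% of all genes, and limma and the filter together called 0 members against 1.95%. For 2 members, Ezh2 and Men1, the libraries of the groups did not overlap, as for 23.9% of all genes. The count over all genes was 309 without control A and 205, 184 and 280 without Dppa4 siRNA A, B and C, again with 0 members. Lower genes made up 68.1% of those called, 45.4% with library weights, 61.1% after the correction, 85.4% with only the 6 libraries compared and 91.3% without Dppa4 siRNA B. Both knockdown comparisons use the same 3 control libraries.

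Between the knockdowns, Dppa4 siRNA against Dppa2 siRNA, limma called 0 of 10 members and 0.0205% of all genes (3 genes, and 1 gene without Dppa4 siRNA B or C). An unadjusted p of 0.05 was passed in limma by 2 members, Aebp2 and Men1, and by 6.76% of all genes. The intensity difference filter called 3 members, Suz12, Mtf2 and Aebp2, against 4.68% of all genes, and both tools together called 0 members against 0.0205%. Aebp2 and Men1 were the 2 members without overlap between these groups, against 17.6% of all genes. The median change of the 10 members was 0.01 for Dppa2 siRNA and -0.13 for Dppa4 siRNA on the log2 scale, beside medians of 0.02 and 0.03 over all genes tested. The members' medians were not recomputed with 1 library left out, although single members turned sign. Without control A, Jarid2, Kmt2a and Kmt2b became 0.159, 0.0943 and 0.0942 with Dppa4 siRNA. Jarid2 and Kmt2a became 0.0953 and 0.134 with Dppa2 siRNA, while Mtf2 became -0.158 there without control C. Read against these shares, the 3 members that the filter called between the knockdowns are the count furthest above the share over all genes, and the libraries of Suz12 and Mtf2 spread widely within treatments. The other counts of members differ from their shares by less than 2 genes of 10. No difference between the members and other genes was tested.

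Ezh2, the main H3K27 methyltransferase of dividing cells, had log2 values of 6.87, 6.82 and 6.80 in control libraries A, B and C, 6.60, 6.76 and 6.69 with Dppa2 siRNA and 6.52, 6.60 and 6.74 with Dppa4 siRNA. All 6 knockdown libraries lay below the lowest control library, Dppa4 siRNA A lay lowest, and the 2 knockdowns overlapped each other. The log2 difference from control was -0.15 with Dppa2 siRNA (SE 0.09, 95% interval -0.35 to 0.06, adjusted p = 0.541, limma). With Dppa4 siRNA it was -0.21 (SE 0.09, 95% interval -0.42 to -0.01, adjusted p = 0.257, limma), so a fall of more than 0.42 in log2 lies outside the interval. Ezh1, the second PRC2 methyltransferase and the form found in many resting cells, had log2 values of 4.42, 4.55 and 4.33 with control siRNA, 4.60, 4.54 and 4.75 with Dppa2 siRNA and 4.68, 4.64 and 4.52 with Dppa4 siRNA. Control A and control C were the lowest libraries, while control B lay above the lowest library of each knockdown. The differences from control were 0.20 (SE 0.11, 95% interval -0.04 to 0.44, adjusted p = 0.448, limma) with Dppa2 siRNA and 0.18 (SE 0.11, 95% interval -0.06 to 0.42, adjusted p = 0.432, limma) with Dppa4 siRNA. Neither methyltransferase passed the threshold, and the difference between their changes was not tested.

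Eed, the subunit that binds trimethylated H3K27, had log2 values of 7.80, 7.76 and 7.75 in the control libraries, 7.65, 7.82 and 7.69 with Dppa2 siRNA and 7.64, 7.77 and 7.83 with Dppa4 siRNA. The 3 groups overlapped throughout, and all 9 libraries lay within 0.19 of each other. Eed differed from control by -0.05 (SE 0.09, 95% interval -0.24 to 0.15, adjusted p = 0.925, limma) for Dppa2 siRNA and -0.02 (SE 0.09, 95% interval -0.22 to 0.18, adjusted p = 0.951, limma) with Dppa4 siRNA. Suz12, the scaffold on which PRC2 assembles, spread far more, with log2 values of 7.52, 6.86 and 6.72 with control siRNA, 7.05, 7.48 and 7.14 with Dppa2 siRNA and 6.52, 6.74 and 7.11 with Dppa4 siRNA. Control A, Dppa2 siRNA B and Dppa4 siRNA C were the highest Suz12 library of their treatment, and all groups overlapped. Its differences from control were 0.19 (SE 0.23, adjusted p = 0.835, limma) with Dppa2 siRNA and -0.24 (SE 0.23, adjusted p = 0.673, limma) with Dppa4 siRNA, and the 95% intervals, -0.32 to 0.71 and -0.76 to 0.27, were wide. These differences ran from 0.0384 to 0.435 and from -0.401 to -0.0015 with 1 library left out. Between the knockdowns Suz12 differed by -0.44 (SE 0.23, adjusted p = 0.797, limma), and the intensity difference filter gave a p of 0.00272 there.

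Among the accessory subunits, Jarid2, which binds nucleosomes and helps to bring PRC2 to its targets, had log2 values of 8.96, 8.50 and 8.25 with control siRNA, 8.25, 8.79 and 8.36 with Dppa2 siRNA and 8.37, 8.49 and 8.73 with Dppa4 siRNA. The range of the control libraries took in all 6 knockdown libraries. Differences of -0.10 (SE 0.20, adjusted p = 0.932, limma) and -0.04 (SE 0.20, adjusted p = 0.965, limma) were found for Dppa2 and Dppa4 siRNA, with 95% intervals of -0.56 to 0.36 and -0.50 to 0.42. Mtf2, a Polycomb-like protein that binds unmethylated CpG-rich DNA, had log2 values of 8.09, 7.40 and 7.04 with control siRNA, 7.31, 8.04 and 7.40 with Dppa2 siRNA and 6.88, 7.12 and 7.35 with Dppa4 siRNA. Control A and Dppa2 siRNA B were high, Dppa4 siRNA A was lowest, and each pair of groups overlapped. With Dppa4 siRNA the difference from control was -0.40 (SE 0.28, 95% interval -1.03 to 0.24, adjusted p = 0.539, limma), and with Dppa2 siRNA it was 0.08 (SE 0.28, adjusted p = 0.971, limma). The Dppa4 siRNA difference of Mtf2 was -0.107 without control A and -0.63 without control C. The intensity difference filter, which uses the mean of each group and not the spread between libraries, gave Mtf2 a p of 0.031 with Dppa4 siRNA against control and of 0.00526 against Dppa2 siRNA.

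Aebp2, a zinc finger subunit found in PRC2 together with Jarid2, had log2 values of 6.38, 6.04 and 6.21 with control siRNA, 6.18, 6.52 and 6.24 with Dppa2 siRNA and 5.84, 5.97 and 6.09 with Dppa4 siRNA. Every Dppa4 siRNA library lay below every Dppa2 siRNA library, and the control libraries overlapped with both. Between the knockdowns the log2 difference was -0.35 (SE 0.13, 95% interval -0.64 to -0.05, unadjusted p = 0.0261, adjusted p = 0.689, limma). Against control, Aebp2 differed by 0.10 (SE 0.13, adjusted p = 0.853, limma) for Dppa2 siRNA and -0.24 (SE 0.13, adjusted p = 0.382, limma) with Dppa4 siRNA.

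Kmt2a, an H3K4 methyltransferase known for its part in keeping Hox genes active, had log2 values of 5.75, 4.92 and 4.70 in control A, B and C, 4.68, 5.39 and 4.76 with Dppa2 siRNA and 4.68, 4.86 and 5.17 with Dppa4 siRNA. Its pooled SD within treatments, 0.42, was the largest of the members, just above that of Mtf2 (0.41), with control A far above the other control libraries, and the 3 groups overlapped. The differences from control were -0.18 (SE 0.29, 95% interval -0.83 to 0.47, adjusted p = 0.905, limma) with Dppa2 siRNA and -0.22 (SE 0.29, 95% interval -0.87 to 0.43, adjusted p = 0.788, limma) with Dppa4 siRNA. Kmt2b, its relative, had log2 values of 6.82, 6.48 and 6.38 with control siRNA, 6.35, 6.54 and 6.26 with Dppa2 siRNA and 6.46, 6.48 and 6.63 with Dppa4 siRNA. Control A was again the highest library, Dppa2 siRNA C was the lowest, and no pair of groups was separate. Kmt2b differed from control by -0.18 (SE 0.13, adjusted p = 0.641, limma) and -0.04 (SE 0.13, adjusted p = 0.945, limma) with Dppa2 and Dppa4 siRNA.

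Men1, which encodes menin, had log2 values of 5.79, 5.98 and 5.79 with control siRNA, 5.97, 5.90 and 5.98 with Dppa2 siRNA and 6.20, 6.22 and 6.11 with Dppa4 siRNA. All 3 Dppa4 siRNA libraries lay above all 6 other libraries, while control and Dppa2 siRNA overlapped. The log2 difference with Dppa4 siRNA was 0.33 against control (SE 0.09, 95% interval 0.12 to 0.53, unadjusted p = 0.00559, adjusted p = 0.0931, limma), a ratio of 1.25, and this was the smallest adjusted p of any member against control. It did not pass the threshold of 0.05, and over 21 alternative settings the adjusted p ranged from 0.0146 to 0.332, past the threshold in 1 of them (estimated library weights). Against Dppa2 siRNA the difference was 0.23 (SE 0.09, 95% interval 0.02 to 0.43, unadjusted p = 0.0331, adjusted p = 0.708, limma), and Dppa2 siRNA differed from control by 0.10 (SE 0.09, adjusted p = 0.739, limma).

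**Figure D1:**
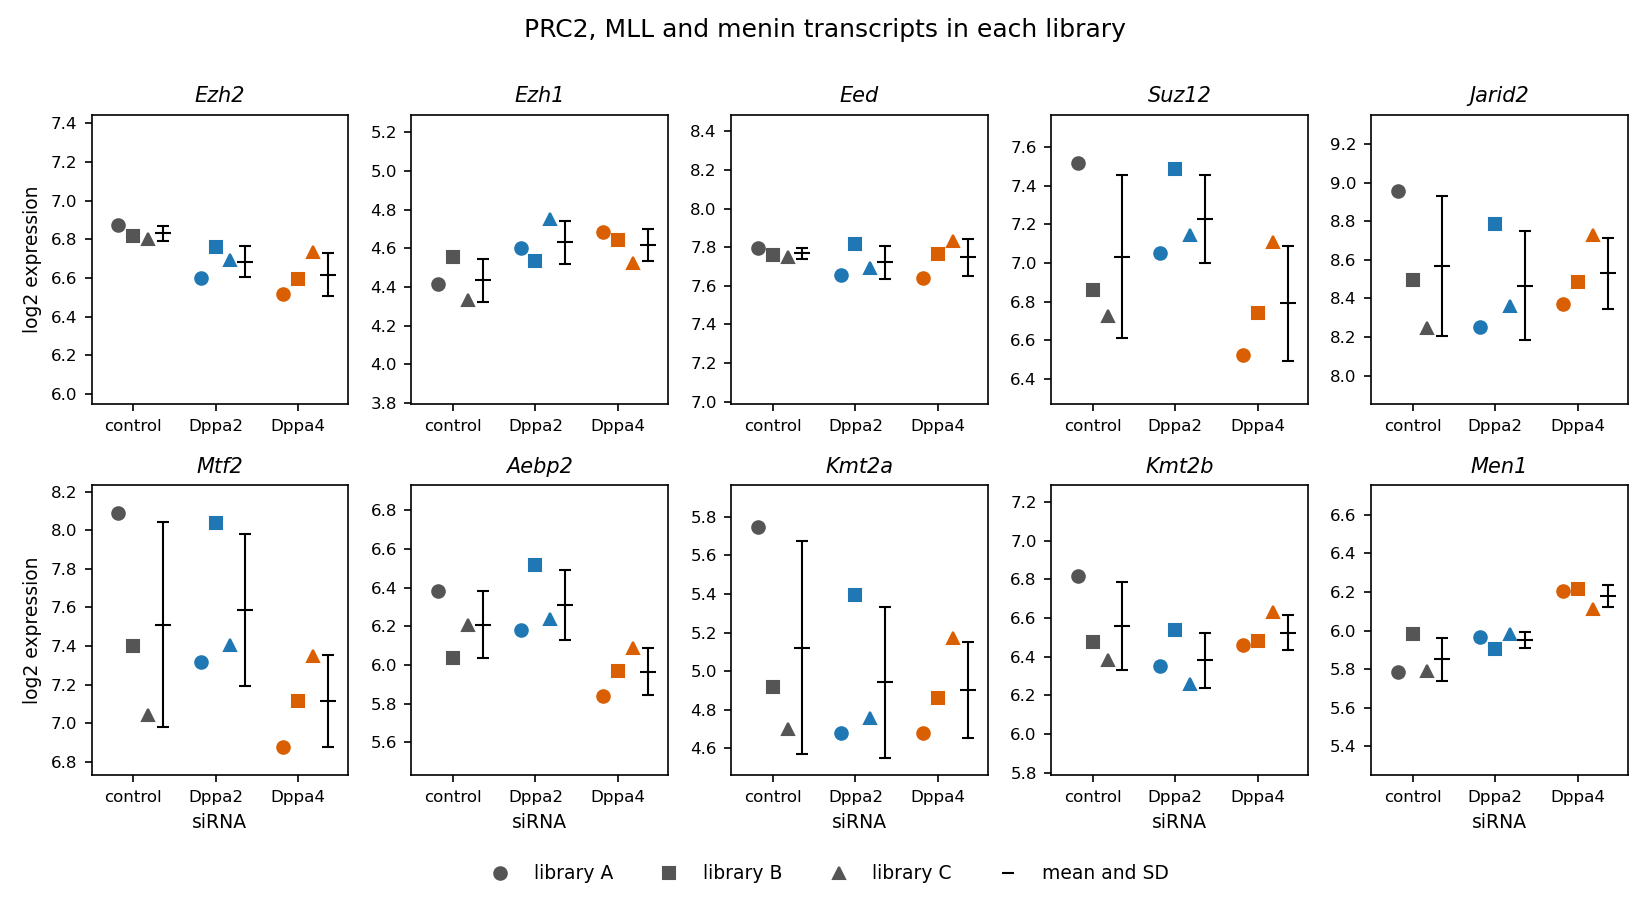
Log2 expression (y axis) of each of the 10 members in the 3 control siRNA, 3 Dppa2 siRNA and 3 Dppa4 siRNA libraries (x axis), with points for libraries A, B and C and a bar for the mean and SD of each treatment; every y axis spans the same number of log2 units but starts at another value. Ezh2 lay lower in all 6 knockdown libraries than in the control libraries, Men1 lay highest in the 3 Dppa4 siRNA libraries, and Suz12, Jarid2, Mtf2 and Kmt2a spread widely within each treatment.

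**Figure D2:**
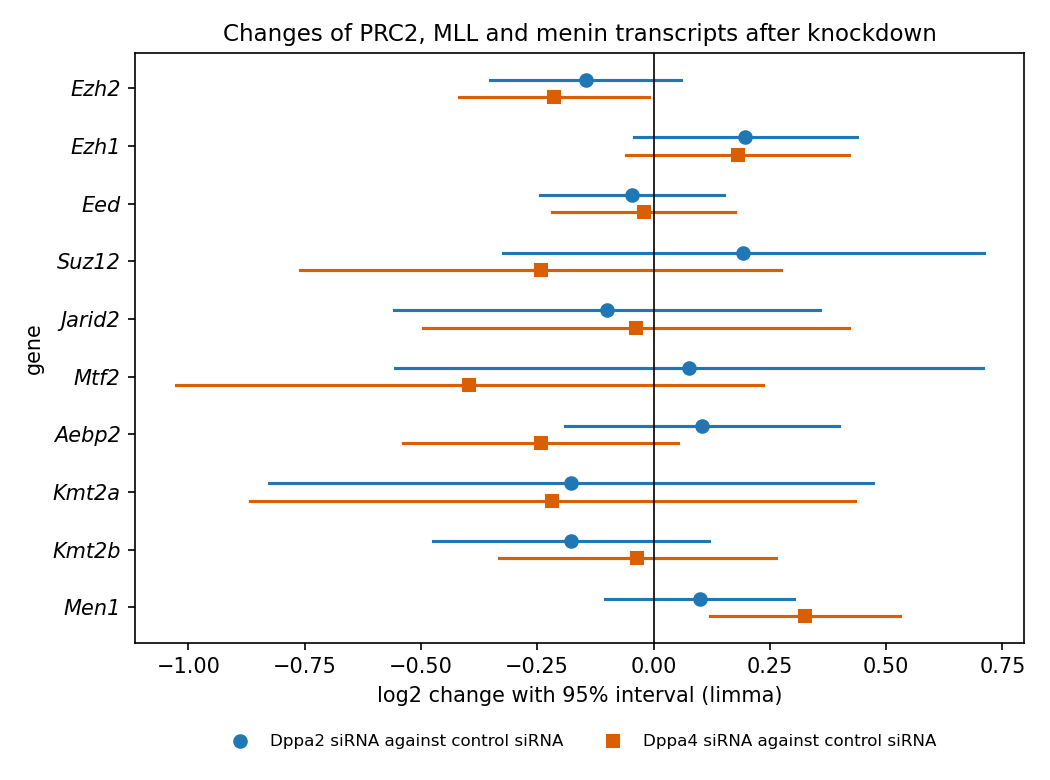
Log2 change (x axis) of each member (y axis) with Dppa2 siRNA (circles) and Dppa4 siRNA (squares) against control siRNA, with 95% intervals from limma as horizontal lines. Of the 20 intervals, those of Ezh2 and Men1 with Dppa4 siRNA do not include 0, before any adjustment over genes.

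The members differed in their spread within treatments. The pooled SD within treatments was 0.08 (log2) for Ezh2, Eed and Men1 and 0.10 for Ezh1, and 4.93% to 11.4% of all genes tested had a smaller SD than these genes. Aebp2 and Kmt2b had an SD of 0.16, below the median of 0.24 over all genes tested. Jarid2 (SD 0.29), Suz12 (0.33), Mtf2 (0.41) and Kmt2a (0.42) lay above that median, and for Kmt2a 78.0% of all genes had a smaller SD.

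For 8 of the 10 members, all but Ezh1 and Men1, the same 3 libraries lay above the mean of their treatment and the same 3 lay below it. The deviations were largest for Kmt2a, Mtf2, Suz12 and Jarid2. How many of all genes tested share this pattern was not counted, so it is not read as particular to the members. Kmt2a deviated from the mean of its treatment by 0.62 in control A, 0.45 in Dppa2 siRNA B and 0.27 in Dppa4 siRNA C, and by -0.42 in control C, -0.26 in Dppa2 siRNA A and -0.22 in Dppa4 siRNA A. For Mtf2 the deviations in these libraries were 0.58, 0.45, 0.24, -0.47, -0.27 and -0.24, in the same order. Suz12, Jarid2, Kmt2b, Aebp2, Ezh2 and Eed had the same signs in these 6 libraries, with 0.48, 0.39, 0.26, 0.17, 0.04 and 0.03 in control A. Men1 and Ezh1 had the opposite sign in control A, Dppa2 siRNA B and Dppa4 siRNA C, with deviations no larger in size than 0.10. The libraries in which these 8 members were high were the 3 in which long transcripts were high over all genes. The annotated transcript of Kmt2a, 16470 bases, is the longest of the members, while those of Suz12 (4373 bases) and Ezh1 (4207 bases) have nearly the same length but differ in GC content, 41.6% and 51.2%. The longest coding transcripts of Eed (2067 bases) and Ezh2 (2787 bases) are the shortest of the members, yet both genes are among the 8.

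**Figure D3:**
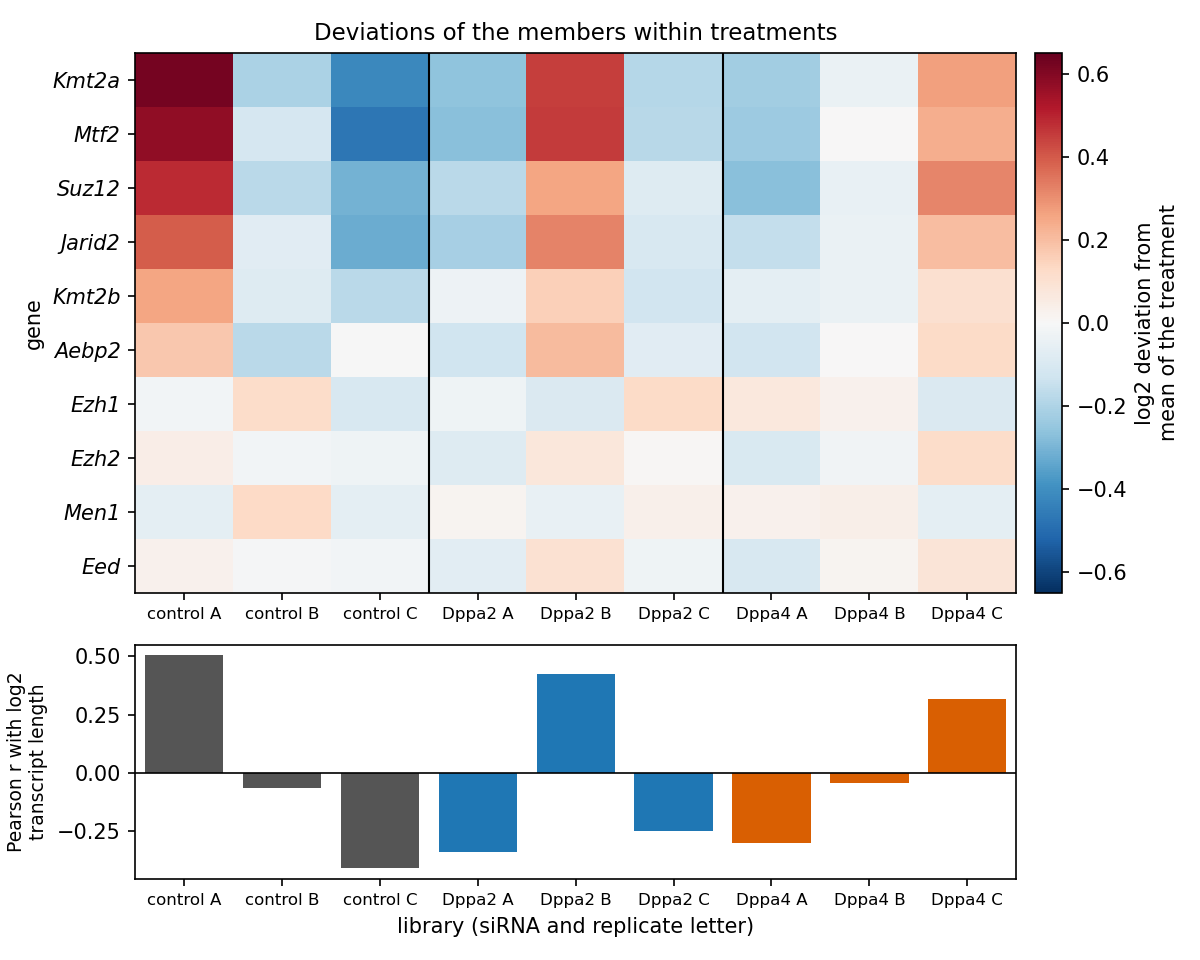
Upper panel, log2 deviation of each member (y axis, ordered by spread) from the mean of its treatment in each of the 9 libraries (x axis), on a colour scale from blue (lower) to red (higher). Lower panel, Pearson r across 13081 genes between such deviations and log2 transcript length in the same libraries, which was 0.50 in control A, 0.42 in Dppa2 siRNA B and 0.32 in Dppa4 siRNA C, where Kmt2a, Mtf2, Suz12 and Jarid2 were also high.

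Each library was also corrected for transcript length and GC content over the 13081 genes, an alternative chosen after seeing the data. The SD within treatments became 0.13 for Suz12 and Jarid2, 0.08 for Mtf2 and 0.20 for Kmt2a, and 0.05 for Ezh2, while it became larger for Aebp2 (0.20), Eed and Ezh1 (both 0.12). Corrected log2 values of Suz12 were 7.13, 6.82 and 6.92 with control siRNA, 7.25, 7.21 and 7.24 with Dppa2 siRNA and 6.73, 6.81 and 7.04 with Dppa4 siRNA. On this scale the Dppa2 siRNA libraries were the highest for Suz12, without overlap, by 0.28 (SE 0.10, adjusted p = 0.146, limma) against control. Mtf2 had corrected values of 7.56, 7.39 and 7.34 with control siRNA, 7.57, 7.63 and 7.52 with Dppa2 siRNA and 7.16, 7.20 and 7.26 with Dppa4 siRNA. Its Dppa4 siRNA libraries then lay below all others, by -0.23 (SE 0.08, adjusted p = 0.111, limma) against control. Ezh2 again lay lower in every knockdown library than in the control libraries, and Men1 lay highest in the Dppa4 siRNA libraries. The share of all genes without overlap was not counted on this scale, so these separations have no share to be read against. The correction turned the sign of the Dppa4 siRNA difference of Jarid2 (0.03) and Kmt2b (0.01), and the difference of Men1 was 0.23 (adjusted p = 0.0939, limma). For Dppa4 siRNA it brought the differences of Aebp2 (from -0.24 to -0.0299), Suz12 (from -0.24 to -0.0931) and Kmt2a (from -0.22 to -0.0987) nearer to 0. Those of Ezh2 (from -0.21 to -0.15, adjusted p = 0.196, limma), Mtf2 (from -0.40 to -0.23), Men1 (from 0.33 to 0.23) and Ezh1 (from 0.18 to 0.15) also came nearer to 0. For Dppa2 siRNA the differences of Kmt2a (from -0.18 to -0.0088), Jarid2 (from -0.10 to -0.0248), Kmt2b (from -0.18 to -0.104) and Men1 (from 0.10 to 0.0441) came nearer to 0. That of Ezh2 did so too (from -0.15 to -0.106, adjusted p = 0.389, limma), while those of Aebp2 (0.24), Mtf2 (0.14) and Suz12 (0.28) became larger. None of the 10 members passed the threshold of limma in any comparison after the correction, and the part of transcript length in the differences was not tested.

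Without control A, Dppa2 siRNA B and Dppa4 siRNA C, limma called 0 of 10 members in each of the 3 comparisons, with 2 libraries left in each treatment. The lowest adjusted p of a member against control was then 0.206, for Men1 with Dppa4 siRNA, whose log2 difference was 0.33 as with all libraries. Ezh2 differed from control by -0.16 with Dppa2 siRNA and -0.25 with Dppa4 siRNA, and Eed by -0.08 and -0.05. Suz12 differed by 0.31 and -0.16, Mtf2 by 0.14 and -0.22, and Aebp2 by 0.09 and -0.22, in the same order. The differences of Ezh1 were 0.24 and 0.22, close to those with all 9 libraries. For Kmt2a they were -0.09 and -0.04, for Kmt2b -0.13 and 0.04, and Jarid2 differed by 0.06 with Dppa4 siRNA, so that the sign of Jarid2 and Kmt2b with Dppa4 siRNA turned. The difference of Kmt2a with Dppa2 siRNA was 0.13 where control A alone was left out.

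Levels of different genes were compared per kilobase of the longest annotated coding transcript, as log2 values averaged over the 9 libraries. In this order Eed stood at 6.70, Jarid2 at 5.94, Mtf2 at 5.38, Ezh2 at 5.23 and Suz12 at 4.89. Men1 (4.42), Aebp2 (3.59), Kmt2b (3.41), Ezh1 (2.49) and Kmt2a (0.95) followed. The ranges over libraries overlapped for the neighbours Jarid2 and Mtf2, Mtf2 and Ezh2, Ezh2 and Suz12, Suz12 and Men1, and Aebp2 and Kmt2b. Ezh2 was higher than Ezh1 in all groups, at 5.35 against 2.36 with control siRNA, 5.21 against 2.56 with Dppa2 siRNA and 5.14 against 2.54 with Dppa4 siRNA, per kilobase. The places of Jarid2 and Mtf2 depend on the length used, since per kilobase of their median coding transcript they stood at 7.20 and 7.77, above Eed. With merged exons as the length, Eed was again highest (5.81) and Kmt2a lowest (0.93). Suz12 (4.71) and Men1 (4.05) then stood above Ezh2 (3.97), and Kmt2b (3.23) above Aebp2 (2.86). Stretches of 50 bases shared with another gene made up at most 0.364% of any member's transcripts, and for 6 of the 10 members there were none.

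The members lie on 7 chromosomes, Ezh2 and Aebp2 on chromosome 6, Eed and Kmt2b on chromosome 7, Ezh1 and Suz12 on chromosome 11, and Mtf2, Kmt2a, Jarid2 and Men1 on chromosomes 5, 9, 13 and 19. Promoter sequences of 250 bases before the transcription start, from RefSeq on build GRCm38.p6, were matched by symbol for 9 of the 10 members. Kmt2b was not among them. Of the 3 promoters listed for Aebp2 and for Men1 and the 2 for Jarid2 and for Mtf2, the nearest to the start of the longest coding transcript was taken. Of the 250 bases, 125 in Ezh2, 60 in Men1 and 7 in Eed and Kmt2a lie in exons of the same gene. The motif searched was CG, the dinucleotide at which DNA is methylated and the feature of CpG-rich PRC2 and MLL targets, which is its own reverse complement and so is counted on both strands at once. At least 1 CG is held by 92.1% of all 32851 promoters of that table, with a median of 6. Suz12 had 37 CG, a count that 2.20% of all promoters reach, Kmt2a had 29 (6.78%), Mtf2 and Ezh2 had 23 (13.3%) and Jarid2 had 22 (14.8%). Ezh1 had 14 (29.4%), Eed 12 (33.5%), Men1 9 (40.3%) and Aebp2 1 (92.1%). The promoters of Suz12, Jarid2, Mtf2 and Kmt2a, the members with the widest spread, are printed, with that of Ezh1, whose deviations had another sign, for comparison. Sequences run 5′ to 3′ along the gene, in lower case with each CG in capitals. Suz12 lies at chr11:79992856-79993105 on the plus strand, Jarid2 at chr13:44731021-44731270 on the plus strand, Mtf2 at chr5:108065424-108065673 on the plus strand, Kmt2a at chr9:44881290-44881539 on the minus strand and Ezh1 at chr11:101226464-101226713 on the minus strand. A match describes these letters and is not a binding site or a cause of the values above.
Suz12: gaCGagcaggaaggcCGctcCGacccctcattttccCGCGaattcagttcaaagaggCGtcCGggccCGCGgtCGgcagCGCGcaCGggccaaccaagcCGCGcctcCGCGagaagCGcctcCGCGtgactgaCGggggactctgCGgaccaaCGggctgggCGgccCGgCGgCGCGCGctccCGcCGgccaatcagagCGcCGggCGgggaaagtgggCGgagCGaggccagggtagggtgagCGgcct
Jarid2: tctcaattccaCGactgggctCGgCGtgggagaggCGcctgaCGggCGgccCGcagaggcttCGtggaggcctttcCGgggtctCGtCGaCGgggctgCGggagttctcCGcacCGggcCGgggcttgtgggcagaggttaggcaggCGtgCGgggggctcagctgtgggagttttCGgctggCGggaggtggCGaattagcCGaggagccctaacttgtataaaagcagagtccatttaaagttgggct
Mtf2: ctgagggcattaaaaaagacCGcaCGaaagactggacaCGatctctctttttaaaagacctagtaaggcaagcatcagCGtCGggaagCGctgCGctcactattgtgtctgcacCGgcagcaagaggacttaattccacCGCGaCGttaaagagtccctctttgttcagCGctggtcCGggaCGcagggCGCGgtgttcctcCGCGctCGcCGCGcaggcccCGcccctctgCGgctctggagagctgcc
Kmt2a: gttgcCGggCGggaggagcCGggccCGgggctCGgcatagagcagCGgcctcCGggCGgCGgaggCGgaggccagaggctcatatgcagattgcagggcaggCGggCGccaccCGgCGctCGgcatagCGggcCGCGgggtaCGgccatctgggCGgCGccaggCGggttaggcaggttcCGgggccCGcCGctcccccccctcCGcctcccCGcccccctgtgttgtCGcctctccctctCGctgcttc
Ezh1: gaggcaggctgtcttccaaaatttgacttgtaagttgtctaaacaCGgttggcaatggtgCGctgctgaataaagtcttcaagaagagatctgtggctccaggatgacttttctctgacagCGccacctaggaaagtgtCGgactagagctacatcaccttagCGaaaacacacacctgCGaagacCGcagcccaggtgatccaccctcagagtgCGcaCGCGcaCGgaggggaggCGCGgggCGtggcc

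Other genes of the same complexes are given by lists. Of 7 further PRC2 genes, all tested, limma called 1 higher and 0 lower with Dppa2 siRNA, where 1 passed an unadjusted p of 0.05 and the intensity difference filter called 1 other gene, and 0 with Dppa4 siRNA, where 1 passed an unadjusted p of 0.05 and the filter called 0. Over all genes tested, limma called 1.16% higher with Dppa2 siRNA, and 15.7% and 18% passed an unadjusted p of 0.05 with Dppa2 and Dppa4 siRNA. The 1 called by limma was Phf19, a Polycomb-like protein related to Mtf2, with log2 values of 3.34, 3.26 and 3.31 with control siRNA, 3.87, 3.71 and 3.77 with Dppa2 siRNA and 3.58, 3.54 and 3.49 with Dppa4 siRNA. The 3 groups did not overlap, with control siRNA lowest and Dppa2 siRNA highest. It was not called by limma and the filter together (filter p of 0.0515). Phf19 rose by 0.48 with Dppa2 siRNA (SE 0.10, adjusted p = 0.0305, limma) and differed by 0.24 with Dppa4 siRNA (SE 0.10, adjusted p = 0.24, limma). The call was lost when any of 7 of the 9 libraries was left out (control A or B, Dppa2 siRNA A or C, or any Dppa4 siRNA library), with adjusted p from 0.0581 to 0.141, and was kept in 10 of 21 alternatives. The median change of these 7 genes was 0.13 for Dppa2 siRNA and 0.06 for Dppa4 siRNA, beside 0.02 and 0.03 over all genes tested, and with 1 library left out that for Dppa2 siRNA ran from -0.119 (without control C) to 0.195 and that for Dppa4 siRNA from 0.0163 to 0.137.

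Of 18 further genes of the MLL and SET1 (COMPASS) complexes, 17 were tested, and limma called 0 in either knockdown. At an unadjusted p of 0.05, 0 and 1 passed with Dppa2 and Dppa4 siRNA, and the intensity difference filter called 2 and 0. Over all genes tested limma called 3.44% in each knockdown. An unadjusted p of 0.05 was passed by 15.7% and 18% of them, and the filter called 4.73% and 4.65%. Their median changes were -0.04 and 0.02, and with 1 library left out ran from -0.14 to 0.036 and from -0.127 to 0.133. Bod1l (-0.49 and -0.21, adjusted p = 0.635 and 0.853, limma) and Kmt2d (-0.26 and -0.27, adjusted p = 0.714 and 0.623, limma) had the largest mean difference from control. With 1 library left out, Bod1l ran from -0.842 to -0.172 and from -0.56 to 0.11, and Kmt2d from -0.44 to -0.0512 and from -0.444 to -0.0551. Of the 7 demethylases of H3K27 and H3K4, which remove methyl groups from the residues that PRC2 and the MLL proteins methylate, though not all act on the trimethylated form, limma called 0 in either knockdown, 0 and 1 passed an unadjusted p of 0.05, and the filter called 1 in each. The median changes of the demethylases were -0.15 and -0.16, but 0.0245 and 0.122 without control A and -0.337 and -0.381 without control C, with the largest mean differences for Kdm1b (-0.35 and -0.53, adjusted p = 0.562 and 0.248, limma) and Kdm6a (-0.37 and -0.20, adjusted p = 0.819 and 0.882, limma). With 1 library left out, Kdm1b ran from -0.547 to -0.104 and from -0.734 to -0.292, and Kdm6a from -0.781 to -0.0192 and from -0.615 to 0.146.

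PRC1 ubiquitinates H2A at many PRC2 targets, and the 22 PRC1 genes of the list were all tested. limma called 0 of them with Dppa2 siRNA, where 2 passed an unadjusted p of 0.05 and the filter called 0, and 1 lower with Dppa4 siRNA, where 4 passed an unadjusted p of 0.05 and the filter called 0. Of all genes tested 15.7% and 18% passed an unadjusted p of 0.05, and 2.34% were called lower with Dppa4 siRNA. That gene, Pcgf5, had log2 values of 2.87, 2.87 and 3.19 with control siRNA, 2.53, 2.56 and 2.70 with Dppa2 siRNA and 2.24, 2.17 and 2.23 with Dppa4 siRNA. The groups were separate, and Pcgf5 fell by 0.76 with Dppa4 siRNA (SE 0.13, adjusted p = 0.0132, limma), with a difference of -0.38 for Dppa2 siRNA (adjusted p = 0.177, limma). Without Dppa4 siRNA A, B or C the call was lost (adjusted p from 0.0517 to 0.0825), as it was after the length and GC correction (-0.53, adjusted p = 0.328, limma), and 14 of 21 alternatives kept it. The median change of the PRC1 genes was -0.16 for Dppa2 siRNA and -0.13 for Dppa4 siRNA. With 1 library left out it ran from -0.231 to -0.0944 and from -0.165 to -0.0413, in both cases nearest to 0 without control A.

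Of 26 developmental regulators with bivalent promoters in ESCs, 17 passed the filter on low values, so counts and medians hold for those 17. With Dppa2 siRNA 0 were called higher and 1 lower, Neurog1, a neurogenic transcription factor, and with Dppa4 siRNA 2 were called higher, Gata6 and Sox17, both transcription factors of endoderm, and 0 lower. Over all genes tested limma called 1.16% higher and 2.27% lower with Dppa2 siRNA, and 1.1% higher and 2.34% lower with Dppa4 siRNA. At an unadjusted p of 0.05, 7 and 6 of the 17 passed in limma, where 15.7% and 18% of all genes tested did. The filter called 0 and 1 of the 17, beside 4.73% and 4.65% of all genes, and limma and the filter together called 0 in each. Neurog1 had log2 values of -0.12, -0.48 and -0.35 with control siRNA, -2.63, -2.25 and -2.42 with Dppa2 siRNA and -2.15, -0.65 and -1.08 with Dppa4 siRNA. Only Dppa4 siRNA A came near the low Dppa2 siRNA libraries. In Dppa2 siRNA C, Neurog1 had the same value as Foxa2, which had an estimated 3 reads there, so the low values rest on few reads. Neurog1 fell by 2.11 with Dppa2 siRNA (SE 0.39, adjusted p = 0.0214, limma), a call lost without control A, control B, Dppa2 siRNA A or Dppa2 siRNA C (adjusted p from 0.0657 to 0.0889). It was kept in 12 of 20 alternatives, with adjusted p up to 0.177 and a change of -0.605 at a pseudocount of 1. Gata6 had log2 values of 0.62, 0.56 and -0.28 with control siRNA, 1.03, 1.19 and 0.92 with Dppa2 siRNA and 1.77, 1.81 and 1.64 with Dppa4 siRNA, and rose by 1.44 with Dppa4 siRNA (SE 0.24, adjusted p = 0.0132, limma). That call was lost without Dppa4 siRNA A or B (adjusted p of 0.0666 and 0.0762) and kept in 18 of 21 alternatives. Sox17 had log2 values of -0.75, -0.13 and -0.74 with control siRNA, -0.17, 0.25 and 0.51 with Dppa2 siRNA and 0.73, 0.61 and 0.63 with Dppa4 siRNA. The Dppa4 siRNA libraries of Sox17 were the highest, and it rose by 1.20 with Dppa4 siRNA (SE 0.25, adjusted p = 0.0348, limma), and lost its call without control A, control C or any Dppa4 siRNA library (adjusted p from 0.0703 to 0.143). Only 10 of 21 alternatives kept it, with adjusted p up to 0.197, and the change was 0.603 at a pseudocount of 1. The reads of Sox17 were few, an estimated 20, 53 and 16 with control siRNA and 53, 49 and 36 with Dppa4 siRNA. The median change of the 17 genes was -0.36 for Dppa2 siRNA and 0.03 for Dppa4 siRNA, and with 1 library left out it ran from -0.437 to -0.208 and from -0.117 to 0.225.

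Markers of other cell types are given by lists as well. The 10 markers of 2C-like cells, a rare state of ESCs, were all called lower by limma and by the filter in both knockdowns. Of all genes tested limma called 2.27% lower with Dppa2 siRNA and 2.34% lower with Dppa4 siRNA. Among the 10 markers, Gm12794, Dub1, Tmem92, Zfp352, Usp17lc and Zscan4d had the smallest adjusted p, with changes from -7.76 to -5.31 for Dppa2 siRNA and from -7.38 to -5.43 for Dppa4 siRNA. The size of these changes depends on the lowest values of the libraries, and at a pseudocount of 1 they ran from -4.55 to -1.67 and from -4.61 to -1.69. For 7 of these 10 only the control libraries exceed -2, so they passed the filter on low values through the group in which they are high. Without that filter limma called all 10 as well. With Dppa2 siRNA that fit also called 7462 genes at the lowest value of every library, so its calls there add no support. Their summed level was 6.50, 6.37 and 6.36 (log2) in control A, B and C, 0.31, -0.48 and 0.40 with Dppa2 siRNA and 0.16, -0.47 and 0.07 with Dppa4 siRNA. Zscan4d was the most abundant of them on average, and in the knockdown libraries 2 to 6 of the 10 were at the lowest value of the library. Of 8 primitive endoderm markers, limma called 0 with Dppa2 siRNA, where 3 passed an unadjusted p of 0.05 and the filter called 0, and 2 higher with Dppa4 siRNA, again Gata6 and Sox17, where 5 passed an unadjusted p of 0.05, the filter called 1 and limma and the filter together called 0. Over all genes tested limma called 1.1% higher with Dppa4 siRNA, and 15.7% and 18% passed an unadjusted p of 0.05 with Dppa2 and Dppa4 siRNA. The median change of the 8 markers was 0.49 and 1.14, from 0.316 to 0.646 and from 0.96 to 1.23 with 1 library left out. Their summed level, carried by the most abundant gene Lama1, was 6.13, 6.18 and 5.85 (log2) with control siRNA, 6.07, 6.04 and 6.0 with Dppa2 siRNA and 6.05, 6.14 and 6.13 with Dppa4 siRNA. None of these 8 was at the lowest value of a library, although Sox7 and Foxa2 had as few as 3 estimated reads in a library. In bulk RNA, fewer cells of a type and less RNA per cell cannot be told apart, and the part of these cell types in the values of Men1, Ezh2 and the other members was not tested. Of 7 fibroblast markers, which would show feeder cells, 2 were tested and limma called 0, with 0 at an unadjusted p of 0.05 and 0 by the filter, in both knockdowns. Those 2 were Col1a1, with changes of 0.30 and 0.10 (adjusted p of 0.648 and 0.896, limma), and Thy1, with -0.23 and 0.12 (adjusted p of 0.687 and 0.828, limma). Of all genes tested limma called 3.44% in each knockdown. Col1a1 ran from 0.169 to 0.537 and from 0.0155 to 0.157 with 1 library left out. Thy1 then ran from -0.307 to -0.115 and from 0.0258 to 0.291. Postn and Lum were at the lowest value in all 9 libraries, Thy1 was the most abundant, and the summed level ran from 2.52 to 3.09 (log2), with 2.77, 2.99 and 2.77 in the control libraries, 2.89, 2.52 and 2.77 with Dppa2 siRNA and 3.07, 3.09 and 2.63 with Dppa4 siRNA.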

How the data were processed

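Per the submitters' processing notes, the authors trimmed reads with Trim Galore 0.4.5 and mapped them to GRCm38 with HISAT2 2.0.5. The paper gives an earlier version of Trim Galore. Genes were quantified in SeqMonk, the distributions of the 9 libraries were matched, and normalised log2 expression values were deposited. Of the 25965 genes, 14601 whose log2 value exceeds -2 in 3 or more libraries were tested.

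A linear model with a term for treatment and an intensity trend was fitted over the 9 libraries (limma 3.58.1, R 4.3.3), with Benjamini-Hochberg adjustment over all genes tested and a threshold of 0.05. limma takes the place of the count model that the study used, because the values are on a log2 scale. The intensity difference filter was rebuilt as a normal model of the 1% of genes closest in mean level, with a cut of 0.05 on its p. Reads were estimated from the order of distinct values up to 300 reads, and above from the slope between 300 and 700 reads. Lengths and GC content come from the GENCODE annotation of GRCm38, for 89.6% of the genes tested. Python 3.11.15 with pandas 2.3.3, numpy 2.4.6 and matplotlib 3.10.9 did the rest, and the fit was tested on simulated data.

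All members, both targeted genes, each list's called genes (at most 6) or otherwise its 2 largest mean changes, and each marker list's most abundant gene and genes at the lowest value are named. Members and lists were chosen with earlier results of these data known. Alternatives were other filters, scalings, a pseudocount of 1, no trend, library weights, fewer libraries, a replicate block, both call rules together, a length and GC correction, and other transcript lengths.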

Additional observations from a re-analysis of the deposited data

How the results depend on the processing

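Over 630 alternative values of member changes, 584 kept direction and side of the threshold, 15 passed the threshold and 31 reversed. The length and GC correction, its use with the replicate block, the fit without control A, Dppa2 siRNA B and Dppa4 siRNA C, and the weights that did not converge were chosen after seeing the data. Causes of the differences below were not tested.

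Members called were 0 under every alternative except library weights, which gave 2 for Dppa4 siRNA (Ezh2 and Men1) and 4 between the knockdowns (Suz12, Aebp2, Kmt2b and Men1). The default weights did not converge (0.0485 to 68.7) and gave 9 members and 10482 genes between the knockdowns, and 298 and 264 genes against control for Dppa2 and Dppa4 siRNA. A gene by gene estimate (0.176 to 5.90) was used in their place after this had been seen. It called 3558, 2842 and 3775 genes, in the order Dppa2 siRNA against control, Dppa4 siRNA against control, and between the knockdowns, where the main counts are 502, 502 and 3.

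In that order, only the 6 libraries of a comparison gave 230, 294 and 2 genes, both call rules together 279, 284 and 3, the fit without the 3 libraries 163, 145 and 1, and the length and GC correction 862, 861 and 5. Of the genes called, 66.1% and 68.1% were lower in the knockdowns. These shares were 53.6% and 61.1% after that correction, 46.7% and 45.4% with library weights, 80.3% and 81.0% for both call rules together, 86.1% and 85.4% with the replicate block, and 90.4% and 85.4% with the 6 libraries of a comparison. No filter gave 9140 genes with Dppa2 siRNA, 9.79% of them lower, and 5 between the knockdowns. Of the 9140, 7462 were at the lowest value of every library, which differed between libraries from -4.50 to -4.47.

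With 1 library left out the counts were 232 to 494, 184 to 506 and 1 to 3, with 0 members throughout. Counts that moved by more than 1.5 times were, with Dppa2 siRNA, 315 without control A, 314 without control B, 255 without Dppa2 siRNA A, 232 without Dppa2 siRNA C and 300 without Dppa4 siRNA B. For Dppa4 siRNA they were 309 without control A and 205, 184 and 280 without Dppa4 siRNA A, B and C, and between the knockdowns 1 without Dppa4 siRNA B or C.

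The replicate block gave 238, 212 and 1 genes and 0 members, and with the correction 405, 423 and 1. Same-letter pairs correlated at -0.58 to 0.37, above 0.1 in 2 of 9 pairs, and 2 of 9 libraries correlated best with their own letter, so the letters were not taken to pair the libraries.

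Reversed changes with Dppa2 siRNA were -0.0401 for Mtf2 with library weights, and -0.276 for Mtf2, -0.0545 for Suz12 and -0.0585 for Aebp2 with weights that did not converge. With Dppa4 siRNA they were 0.029 for Jarid2, 0.0088 for Kmt2b and 0.0281 for Dppa2 after the correction, with or without the replicate block, 0.0581, 0.0415 and 0.04 without the 3 libraries, and 0.0089 for Dppa2 with weights that did not converge. Between the knockdowns Kmt2a gave 0.0901 with library weights, 0.101 with weights that did not converge and 0.0508 without the 3 libraries.

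Ranges with 1 library left out, where they cross 0, were -0.26 to 0.0953 (Jarid2), -0.158 to 0.365 (Mtf2) and -0.40 to 0.134 (Kmt2a) with Dppa2 siRNA. With Dppa4 siRNA they were -0.0635 to 0.0309 (Eed), -0.20 to 0.159 (Jarid2), -0.43 to 0.0943 (Kmt2a), -0.123 to 0.0942 (Kmt2b), -0.143 to 0.0203 (Dppa2), -0.56 to 0.11 (Bod1l) and -0.615 to 0.146 (Kdm6a). Between the knockdowns they were -0.0634 to 0.0459 (Ezh1), -0.0172 to 0.0772 (Eed), -0.0438 to 0.22 (Jarid2) and -0.17 to 0.185 (Kmt2a).

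The other ranges of members with Dppa2 siRNA were -0.183 to -0.104 (Ezh2), 0.135 to 0.257 (Ezh1), -0.095 to -0.0128 (Eed), 0.0384 to 0.435 (Suz12), 0.0003 to 0.191 (Aebp2), -0.265 to -0.0482 (Kmt2b) and 0.0666 to 0.164 (Men1). With Dppa4 siRNA they were -0.274 to -0.165 (Ezh2), 0.13 to 0.241 (Ezh1), -0.401 to -0.0015 (Suz12), -0.63 to -0.107 (Mtf2), -0.329 to -0.156 (Aebp2) and 0.293 to 0.39 (Men1). Of 594 alternative counts of genes called in the lists 88 moved, and of 567 list medians 32 moved.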
